A study of Mus musculus with 2 samples.

Results

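The genes described here are Ankfn1, Ppp1r16b, A930028N01Rik, Rasgrp3, Tmem229b and Tcf4, followed across the cell types of the embryonic mouse eye cup and, within the retinal pigment epithelium (RPE), across cells of different depth. They are 6 of the 32285 genes in the count tables and are taken by symbol. The 6 genes were chosen by a measured value, their lower level in RPE cells of the Myrf humdG/humdG library than of the Myrf humWT/humWT library. That difference is therefore given as a description, and nothing is supported with it. No cut-off was part of the choice. Levels in other cell types, dependence on depth and promoter sequence were not used to choose the genes.

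The RPE is the pigmented cell layer behind the retina that nourishes photoreceptors, shields them from stray light and renews the visual pigment. MYRF is a membrane-bound transcription factor whose N-terminal part is cut free and enters the nucleus, and in the eye it is made mainly by the RPE. Among the genes, Tcf4 encodes the E protein E2-2, a basic helix-loop-helix factor that Id proteins block, and it is not the Wnt factor TCF7L2 that also goes by the name TCF4. Rasgrp3 encodes an activator of Ras and Rap GTPases that answers to diacylglycerol. Ppp1r16b encodes TIMAP, a membrane-anchored regulatory subunit of protein phosphatase 1 known from endothelium. Ankfn1 encodes a protein with ankyrin repeats and a fibronectin type III domain, Tmem229b a transmembrane protein, and A930028N01Rik a noncoding RNA.

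Single-cell RNA-seq was performed on dissociated eye cups of E17.5 mouse embryos, with 3 eye cups pooled for each of 2 libraries by the labels. The control, Myrf humWT/humWT (humWT), was homozygous for an allele in which the last exon of mouse Myrf was replaced by the matching human sequence. Myrf humdG/humdG (humdG) carried the same replacement with a frameshift near the C terminus, so by the genotype labels both groups carried human sequence in every tissue. The extraction protocol in the labels instead names Myrf fl/fl and Rx>cre Myrf fl/fl samples, and the title and genotype were followed here. With 1 library per genotype, genotype, pool and library cannot be told apart, no test between genotypes was possible, and every interval below is a 95% interval for counting error only. Levels are given in UMIs (unique molecular identifiers, 1 per captured RNA molecule) and as CPM, the UMIs of a gene in every 1000000 UMIs of the same cells, with exact Poisson intervals, and ratios are log2 of humdG over humWT with exact conditional binomial intervals.

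The humWT library held 17421 barcodes and 129135207 UMIs, and the humdG library 19565 barcodes and 114319529 UMIs. After filtering, 16167 cells with a median of 3785 UMIs and 18173 cells with a median of 2625 UMIs remained. Their medians were 1434 and 1197 genes. The study describes fewer cells, with higher medians of genes that were comparable between its libraries, and a larger share of RPE cells. The part of the additional barcodes in the depth difference between the libraries was not tested. The libraries shared 102 barcodes, 86 of them among the kept cells of each. Clustering without the 6 genes gave 24 clusters, of which 18 were named from markers as 14 classes. RPE-like cells were 558 of the humWT and 405 of the humdG cells, or 3.45% and 2.23%, and had a median of 3908 and 2578 UMIs. They came from a larger cluster with 10 of 13 RPE markers raised and a smaller cluster with 9 of 13 raised, led by Ankfn1 itself, Otx2os1, Pde1c and Oca2. Rpe65, Lrat and Best1, which mark the mature RPE, had at most 4 UMIs in either library. Surface epithelium-like cells numbered 104 and 109, and the labels say that the cornea was removed while the methods of the study say that it was left.

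Myrf, the targeted gene, had 1227 UMIs in humWT and 488 in humdG RPE-like cells, or 282 and 196 CPM, a log2 ratio of -0.53 (-0.68 to -0.37). The reads come from the 3′ end of transcripts, which neither allele removes, so this count does not check the labels. Both alleles hold human sequence in the last exon, while the counts were made on mouse build mm10. The study calls the 3′ untranslated region endogenous in its results and human in its methods. Whether Myrf reads were lost in this way was not tested.

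RefSeq gave promoter windows on GRCm38.p6 for 4 of the 6 genes, with 7 transcription starts among them. The 250 bases before each start were searched on both strands for CTGGCAC or CTGGTAC, words that MYRF is known to bind, for CACGTG or CATGTG, E-boxes bound by the pigment cell factor MITF, and for TAATCC, a word bound by OTX factors. Of all 32851 mouse promoters in the same table, 5.93% held a MYRF word, 17.6% an E-box and 6.25% an OTX word. The 7 windows held 1 MYRF word and 2 E-boxes, and Ppp1r16b and A930028N01Rik had no match. The windows below show Rasgrp3, the gene with a match at each of its starts, cut where an annotated exon of the gene begins. They are printed 5′ to 3′ in lower case, and capitals mark a matched word. In the first Rasgrp3 window the capitals read CATGTG on the other strand and begin 240 bases before the start.
Rasgrp3, first start, chr17:75435655-75435895, plus strand: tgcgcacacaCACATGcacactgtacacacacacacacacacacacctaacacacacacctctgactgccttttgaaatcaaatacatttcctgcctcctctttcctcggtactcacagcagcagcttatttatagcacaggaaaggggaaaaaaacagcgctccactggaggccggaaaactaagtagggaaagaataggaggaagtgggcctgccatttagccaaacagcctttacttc
Rasgrp3, second start, chr17:75465288-75465485, plus strand: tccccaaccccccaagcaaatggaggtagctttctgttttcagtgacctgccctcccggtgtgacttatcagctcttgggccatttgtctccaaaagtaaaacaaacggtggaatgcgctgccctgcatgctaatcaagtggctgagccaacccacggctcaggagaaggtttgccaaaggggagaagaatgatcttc

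The other matches lie past such an exon boundary and are shown as short sites. The MYRF word of Rasgrp3 begins 39 bases before its second start, and the E-box of Tmem229b begins 67 bases before its first start.
Rasgrp3, MYRF word, chr17:75465492-75465512, plus strand: tgacctcCTGGCACcgagcga
Tmem229b, E-box, chr12:79007332-79007351, minus strand: aagcgagCATGTGcagtttg

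A match of letters is not a bound site, and no binding was measured here. In the GENCODE annotation of GRCm38, A930028N01Rik covers 1585 bases, and the other 5 genes overlap no other gene of the tables. Whether the counting used strand is not given in the sources used here, so the values of A930028N01Rik are uncertain in that respect. Ankfn1 on chromosome 11 and Tcf4 on chromosome 18 are among the longest genes, spanning 387431 and 345724 bases. Ppp1r16b spans 100937 bases on chromosome 2, Rasgrp3 93159 bases on chromosome 17 and Tmem229b 45833 bases on chromosome 12.

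All 6 genes were lower in humdG than in humWT RPE-like cells, which is what they were chosen for, and their median log2 ratio was -1.17 beside -0.06 over the 12645 genes with at least 20 UMIs. All 6 lay at least 1.5 times lower, as did 15.1% of those genes, and 7.19% lay at least 1.5 times higher. Ankfn1, the gene with ankyrin repeats, had 4461 UMIs in humWT and 1023 in humdG, or 1026 (996 to 1056) and 411 (386 to 437) CPM, a log2 ratio of -1.32 (-1.42 to -1.22). Ppp1r16b, the phosphatase subunit, had 415 and 68 UMIs, or 95.4 (86.5 to 105) and 27.3 (21.2 to 34.6) CPM, and the furthest ratio of the 6 at -1.81 (-2.20 to -1.43). Of all the genes compared, 161 had a lower ratio than Ppp1r16b.

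A930028N01Rik, the noncoding RNA, had 742 UMIs in humWT and 181 in humdG, or 171 and 72.7 CPM, a log2 ratio of -1.23 (-1.47 to -0.995). Rasgrp3, the Ras activator, had 1178 and 315 UMIs, or 271 and 126 CPM, a ratio of -1.10 (-1.28 to -0.92). The ratios of Tmem229b and Tcf4 were the nearest to 0 of the 6. Tmem229b had 585 and 161 UMIs, or 135 and 64.6 CPM, a ratio of -1.06 (-1.32 to -0.80). Tcf4, the E protein, had 1158 and 322 UMIs, or 266 and 129 CPM, a ratio of -1.04 (-1.23 to -0.86), and 642 genes had a lower ratio than Tcf4.

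The smaller RPE-like cluster held 74 humWT but 16 humdG cells. Ankfn1 stood at 774 and 365 CPM in the larger cluster, a log2 ratio of -1.08, and at 2956 and 1688 CPM in the smaller one, a ratio of -0.81. Both ratios were nearer to 0 than the -1.32 of the clusters together. Ppp1r16b had 66 UMIs in humWT and 0 in humdG cells of the smaller cluster, where the interval of its log2 ratio ends at -1.58. With an assumed floor of 3 counts in place of the 0, it would be 3.79-fold lower. In the larger cluster its ratio was -1.68. Tcf4 had ratios of -0.99 in the larger and 0.03 (-0.42 to 0.45) in the smaller cluster. Rasgrp3 was lower in both, at -1.08 and -1.48.

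Across cell classes, Ankfn1, A930028N01Rik and Tmem229b were highest in RPE-like cells of both libraries, with intervals clear of the next named class. Unnamed clusters, which held 43.7% of humWT and 63.0% of humdG cells, are not in this order. Ankfn1 was 27.0 times its level in melanocyte-like cells, the next named class, in humWT and 14.1 times in humdG. The unnamed cluster led by Nrxn3 stood between them, with 268 and 54.3 CPM of Ankfn1. A930028N01Rik was 43.0 times the next named class, melanocyte-like cells, in humWT and 22.4 times in humdG. These multiples are uncertain, as melanocyte-like cells had 7 and 3 UMIs of it, or 3.96 (1.59 to 8.17) and 3.24 (0.67 to 9.46) CPM. In humdG A930028N01Rik had 0 UMIs in 4 classes. Tmem229b was 7.25 times amacrine and horizontal-like cells in humWT and 4.47 times blood vessel-like cells in humdG. The smaller multiples in humdG follow in part from the choice of genes with lower RPE-like levels there. The Nrxn3 cluster also lay above the next named class for A930028N01Rik in humWT, at 7.47 CPM, and for Tmem229b, at 22.4 and 15.6 CPM. Below RPE-like cells, the intervals of neighbours in these 3 orders mostly overlapped.

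Ppp1r16b and Rasgrp3 had their higher levels in RPE-like, blood vessel-like and melanocyte-like cells. Ppp1r16b was 111 (104 to 118) CPM in vessel-like and 95.4 CPM in RPE-like cells of humWT, whose intervals overlap, followed by melanocyte-like cells at 24.9. In humdG the vessel-like level was 105 (94.6 to 117) CPM, and the RPE-like level was 0.26 times that and overlapped the melanocyte-like level of 22.7. Rasgrp3 was highest in RPE-like cells of humWT at 271 CPM, clear of vessel-like cells at 231 and melanocyte-like cells at 224, which overlapped. In humdG it was 194 CPM in vessel-like, 179 in melanocyte-like and 126 in RPE-like cells, so RPE-like cells stood in the third place. The genes were chosen for a lower RPE-like level in humdG. A lower place of RPE-like cells there follows in part from that choice and is a description.

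Tcf4 had another order. It was found in every class and, among the named classes, was highest in vessel-like cells of humWT, at 1017 CPM, and in cartilage-like cells of humdG, at 916 CPM, where it overlapped vessel-like cells. The unnamed cluster led by Nrxn3 stood at 1037 and 1013 CPM. RPE-like cells ranked 11 of 14 in humWT, overlapping surface epithelium-like and neural crest-like cells, and 13 of 14 in humdG, overlapping melanocyte-like cells. The lowest level was that of red blood cell-like cells, 206 CPM in humWT and 63.5 in humdG. Red blood cells make mostly globin, so their level is given as the background of RNA free in the suspension. A UMI of Tcf4 was found in 71.1% of humWT RPE-like cells (67.2% to 74.9%, exact binomial) and in 55.1% of humWT red blood cell-like cells, where the cells had medians of 3908 and 3986 UMIs. In humdG the shares were 37.0% and 20.2%, at medians of 2578 and 4106.5 UMIs. With each cell thinned to 1000 UMIs, the shares were 26.8% of 558 and 21.7% of 512 cells in humWT and 12.7% of 403 and 6.51% of 246 cells in humdG, the shallower cells being left out. With the red blood cell-like level taken off, the Tcf4 ratio in RPE-like cells was 0.13, no longer below 0. It rests on what remains of 266 (251 to 282) CPM after 206 (188 to 226) in humWT. In humdG it rests on 129 (116 to 144) after 63.5 (49.6 to 80.1). No interval was computed for it, so no direction is read from it. Whether RPE-like cells hold the full red blood cell-like level as free RNA was not tested. The same shares for the other 5 genes in red blood cell-like cells were at most 3.87%, beside 28.7% to 49.1% of RPE-like cells in humWT and 8.15% to 23.2% in humdG.

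**Figure D1:**
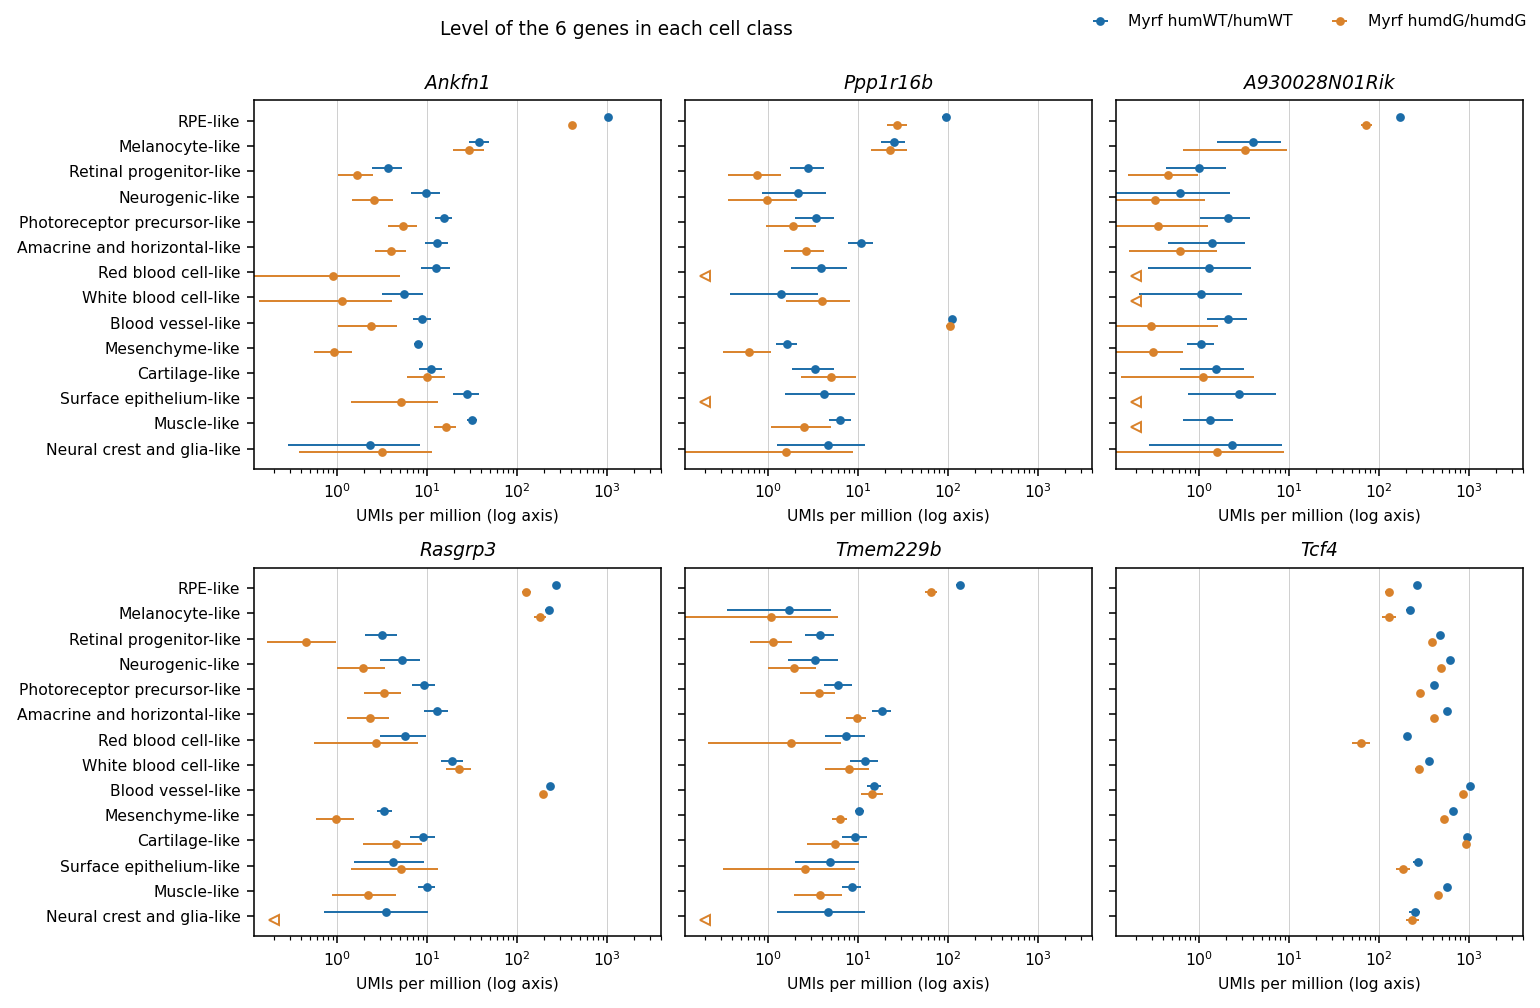
Level of each gene, in CPM on a log axis, in each cell class of the humWT and humdG libraries, with exact Poisson 95% intervals and open triangles at the left for classes with 0 UMIs. RPE-like cells stand alone for Ankfn1, A930028N01Rik and Tmem229b and lie near the bottom for Tcf4. For Ppp1r16b they overlap vessel-like cells in humWT and lie below them in humdG. For Rasgrp3 they are highest in humWT and in the third place in humdG. The genes were chosen for lower RPE-like levels in humdG.

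In blood vessel-like cells Ppp1r16b, Rasgrp3 and Tcf4 are well counted, and their ratios over both clusters together were nearer to 0 than in RPE-like cells. The genes were chosen for low ratios in RPE-like cells, so ratios nearer to 0 elsewhere follow in part from that choice. The contrast is a description. These cells numbered 642 and 383. Ppp1r16b had 886 UMIs in humWT and 357 in humdG, a log2 ratio of -0.07 (-0.26 to 0.10). Rasgrp3 had 1851 and 659 UMIs and a ratio of -0.25 (-0.38 to -0.12), and Tcf4 had 8135 and 2906 UMIs and a ratio of -0.25 (-0.31 to -0.19). Most of these UMIs came from the deeper of the vessel-like clusters. In the shallower one, with medians of 3115.5 and 1971 UMIs, the ratios lay further from 0, at -1.41 (-2.54 to -0.42) for Ppp1r16b, -0.83 (-1.48 to -0.23) for Rasgrp3 and -0.52 (-0.74 to -0.30) for Tcf4. In vessel-like cells of 2000 to under 5000 UMIs they were -0.73, -0.77 and -0.69, and Rasgrp3 was then close to its -0.79 in RPE-like cells of the same depth. In vessel-like cells of at least 10000 UMIs they were 0.09, -0.17 and -0.10. Mesenchyme markers summed to 2273 and 745 CPM in the vessel-like cells, and their part in these ratios was not tested. Tmem229b had 121 and 49 UMIs and a ratio of -0.07 (-0.58 to 0.42). Ankfn1 was sparse there, with 71 and 8 UMIs and a ratio of -1.91 (-3.18 to -0.86), and was the only gene of 5 with 20 UMIs that lay at least 1.5 times lower, as 9.94% of all genes did in these cells. None of the 5 lay at least 1.5 times higher, as 6.32% of all genes did.

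In classes where the genes are scarce, ratios were mostly below 0 as well. In retinal progenitor-like cells 4 of 5 genes lay at least 1.5 times lower, beside 8.92% of all genes, and in mesenchyme-like cells 5 of 6 did, beside 7.58% of all genes. The levels behind these ratios were low. In mesenchyme-like cells Ankfn1 stood at 8.02 and 0.931 CPM and Rasgrp3 at 3.35 and 0.982 CPM. In red blood cell-like cells Ankfn1 stood at 12.7 and 0.895 CPM. Relative to red blood cell-like cells of humWT, Ankfn1, Ppp1r16b, Rasgrp3 and Tmem229b stood at 0.29, 0.71, 0.56 and 0.51 times in progenitor-like cells. Tcf4 stood at 2.28 times. In mesenchyme-like cells Ankfn1, Ppp1r16b and Rasgrp3 stood at 0.63, 0.41 and 0.59 times, Tmem229b at 1.40 and Tcf4 at 3.25. A930028N01Rik had 1.06 beside 1.31 CPM. The part of RNA free in the suspension in these ratios was not tested. That includes RNA of RPE-like cells, where the genes were chosen to be lower, so the counts are a description. Tcf4 is the gene with enough UMIs in every class, and its ratio was below 0 in 12 of 12 other compared classes, with 10 intervals clear of 0. They ran from -1.70 in red blood cell-like to -0.04 in cartilage-like cells, where the median of all genes was itself 0.45. In mesenchyme-like cells, with 22232 and 10204 UMIs, the Tcf4 ratio was -0.35 (-0.38 to -0.31). There 18.6% of all genes had a lower ratio, and genes of at least 300 kb had a median of -0.24. Over the compared classes, the share of genes with a lower ratio than Tcf4 ran from 4.68% in red blood cell-like to 49.4% in neural crest-like cells. In vessel-like cells that share was 25.2%.

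**Figure D2:**
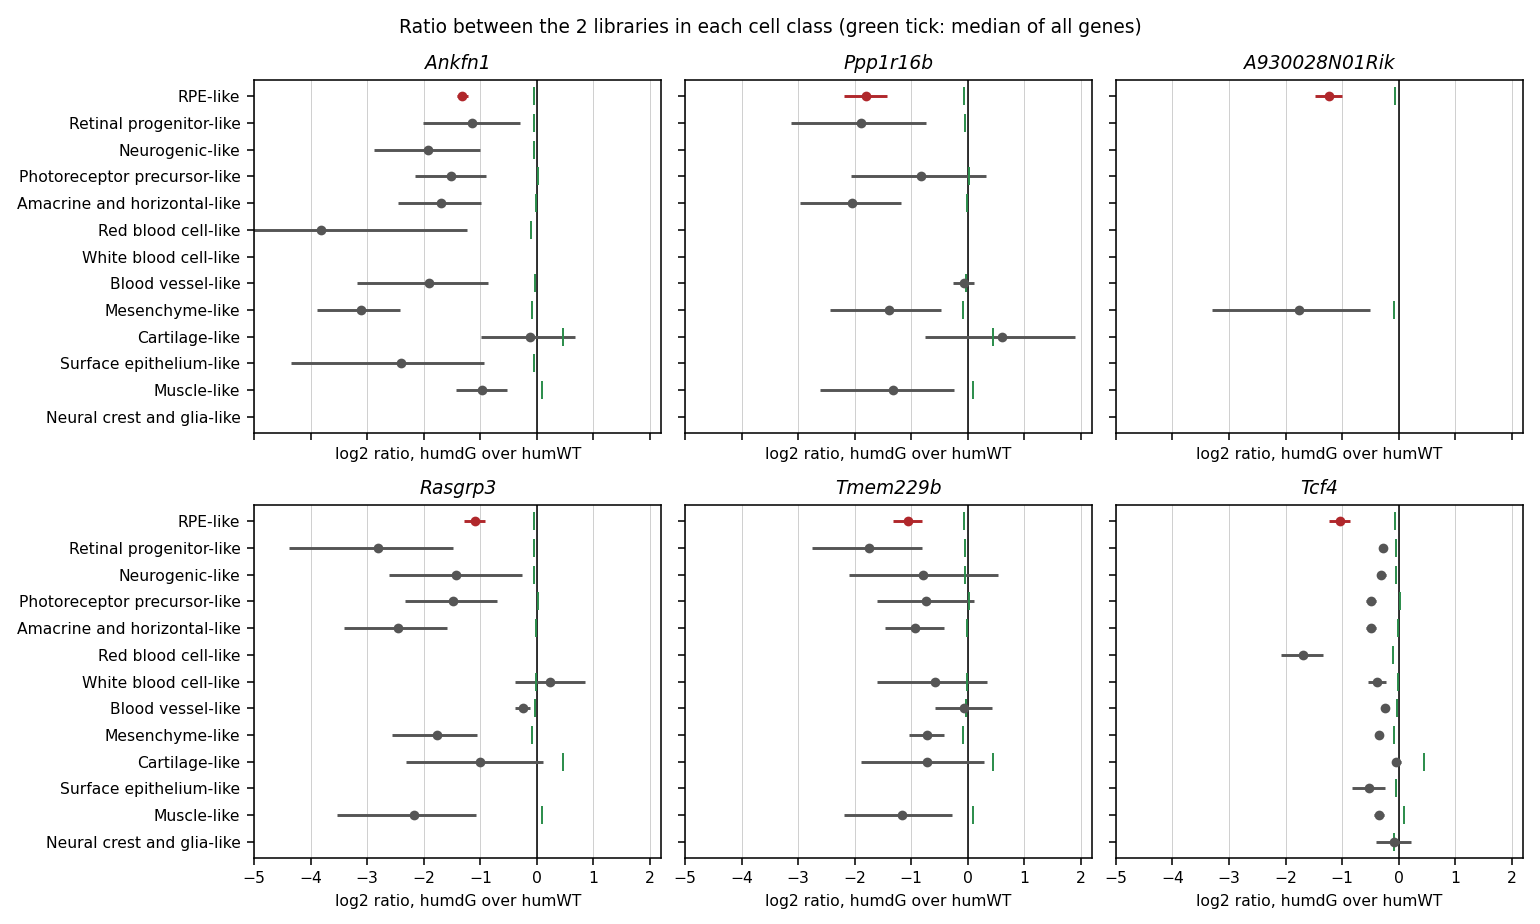
Log2 ratio of humdG over humWT for each gene in each class with at least 20 UMIs, with exact conditional binomial 95% intervals; green ticks mark the median of all genes of the class. Ppp1r16b and Rasgrp3 lie near -1.81 and -1.10 in RPE-like cells, the values the genes were chosen for. In the vessel-like clusters together they lie near -0.07 and -0.25, and Tcf4 lies below 0 in each class drawn.

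Depth differed between the libraries within RPE-like cells. Of the humWT cells 20 of 558 had under 2000 UMIs, against 112 of 405 humdG cells, and cells of 10000 UMIs or more numbered 109 and 69. Within each depth range from 2000 UMIs up, all 6 genes were lower in humdG. The ranges are parts of the cells for which the genes were chosen, so this follows in part from that choice. Ratios over all genes in each range are not given here, and the part of depth in the difference was not tested. In the deepest cells the log2 ratios were -1.07 for Ankfn1, -1.73 for Ppp1r16b, -1.12 for A930028N01Rik, -0.91 for Rasgrp3, -1.04 for Tmem229b and -0.61 (-0.87 to -0.36) for Tcf4. In cells of 5000 to under 10000 UMIs they ran from -2.16 for Ppp1r16b to -1.01 for Tmem229b, with 105 humWT and 37 humdG cells. Of these cells 47 and 6 came from the smaller RPE-like cluster. In cells of 2000 to under 5000 UMIs they ran from -1.24 for Ankfn1 to -0.79 for Tmem229b and Rasgrp3, and the interval of Ppp1r16b, on 32 and 8 UMIs, reached 0.07.

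The levels themselves depended on depth, and not in the same way for every gene. Ppp1r16b stood at 31.1, 113 and 118 CPM in humWT cells of 2000 to under 5000, 5000 to under 10000 and at least 10000 UMIs, and at 14.7, 25.3 and 35.5 CPM in humdG cells. A930028N01Rik went from 71.8 to 219.5 CPM between the first and last of these ranges in humWT and from 31.3 to 101 in humdG. Tmem229b went from 57.3 to 169 CPM and from 33.2 to 82.1 CPM. Ankfn1 stood at 343, 1469 and 1185 CPM in humWT and at 146, 333 and 565 in humdG, and Rasgrp3 went from 121 to 313 in humWT and from 69.99 to 167 in humdG. The deepest cells thus held a higher CPM of these 5 genes than cells of 2000 to under 5000 UMIs in both libraries. Tcf4 ran the other way in humWT, at 390, 383 and 180 CPM, and stood at 168, 131 and 118 CPM in humdG. The summed RPE markers stood higher in deeper cells too, at 6394 and 27659.5 CPM in humWT and 10232 and 24229 CPM in humdG for the same first and last ranges. Mesenchyme markers were lower in deeper cells, at 4578 and 1642 CPM in humWT and 1825 and 836 CPM in humdG. The smaller cluster, rich in Ankfn1, was spread unevenly over the ranges. It gave 20 of 324, 47 of 105 and 7 of 109 humWT cells, and 9 of 187, 6 of 37 and 1 of 69 humdG cells. Its part in the levels by depth was not tested.

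**Figure D3:**
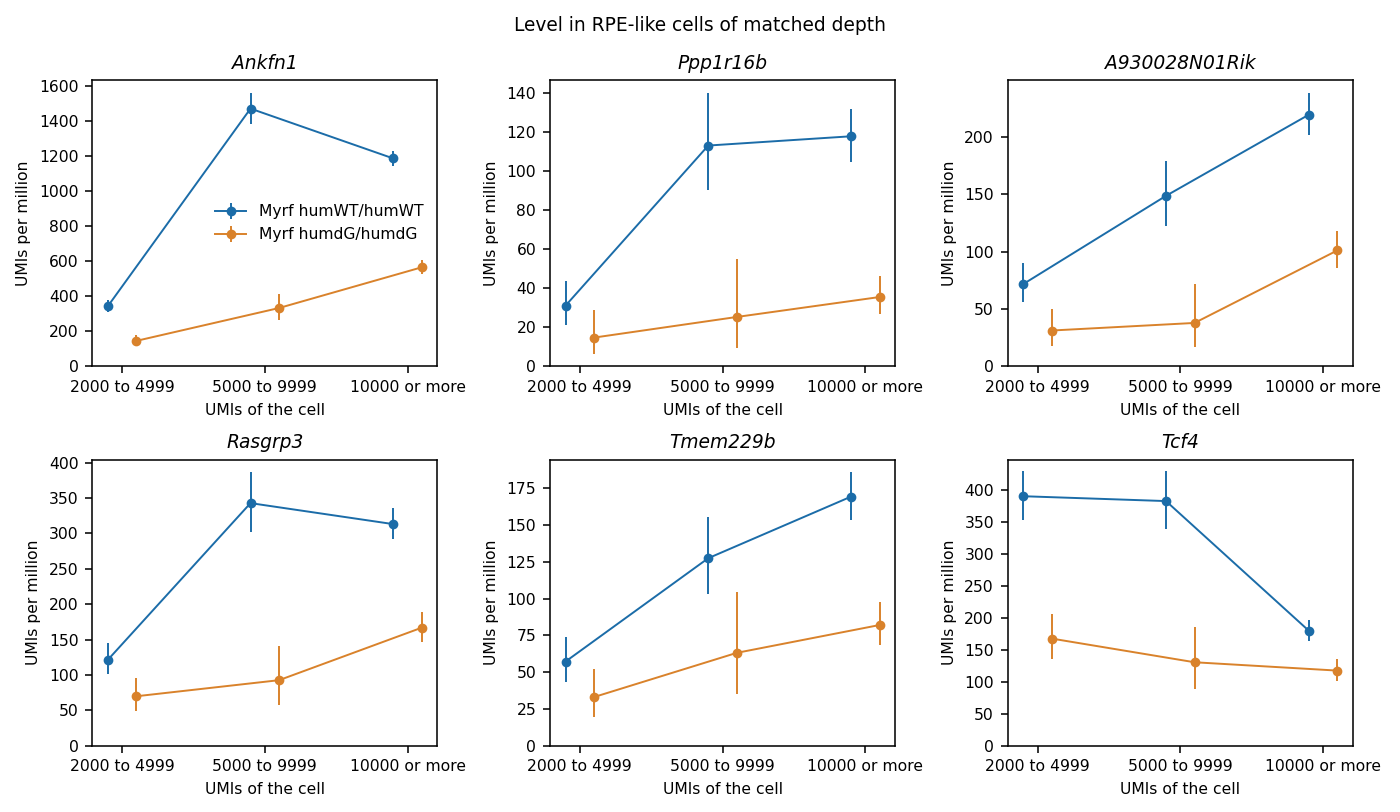
Level of each gene in RPE-like cells, in CPM, by range of UMIs per cell in humWT and humdG, with exact Poisson 95% intervals. In the 3 ranges drawn, humdG lies below humWT in each panel, which follows in part from the choice of the genes. Tcf4 in humWT goes from 390 to 180 CPM between the cells of 2000 to under 5000 UMIs and the deepest ones. The other genes go up in humWT between the same ranges. The smaller cluster, rich in Ankfn1, gave 47 of 105 humWT and 6 of 37 humdG cells of the middle range.

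The spread of the genes over cells follows in part from their choice, since genes with fewer UMIs in humdG are found together in fewer cells there, so these shares are a description. Of cells with 5000 to under 10000 UMIs, 58 of 105 in humWT (55.2%, exact binomial 45.2% to 65.0%) and 1 of 37 in humdG (2.70%, 0.0684% to 14.2%) had a UMI of at least 4 of the 6 genes, at medians of 6976 and 6085 UMIs. The smaller cluster, rich in Ankfn1, gave 47 of the former and 6 of the latter cells. Of cells with at least 10000 UMIs, 84.4% and 59.4% did, and 49 humWT and 9 humdG cells had all 6. The shares of UMIs in the 10 richest cells also depend on the number of UMIs and of cells. For Ankfn1 the 10 richest cells held 25.1% of its UMIs in humWT and 59.0% in humdG, while the same cells held 10.1% and 16.8% of all UMIs. For Tcf4 the shares were 16.1% and 29.2%, the most even of the 6. The lists of 10 cells overlapped, and 2 cells in each library were in the lists of all 6 genes. A single humdG cell held 159 of the 1023 Ankfn1 UMIs.

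**Figure D4:**
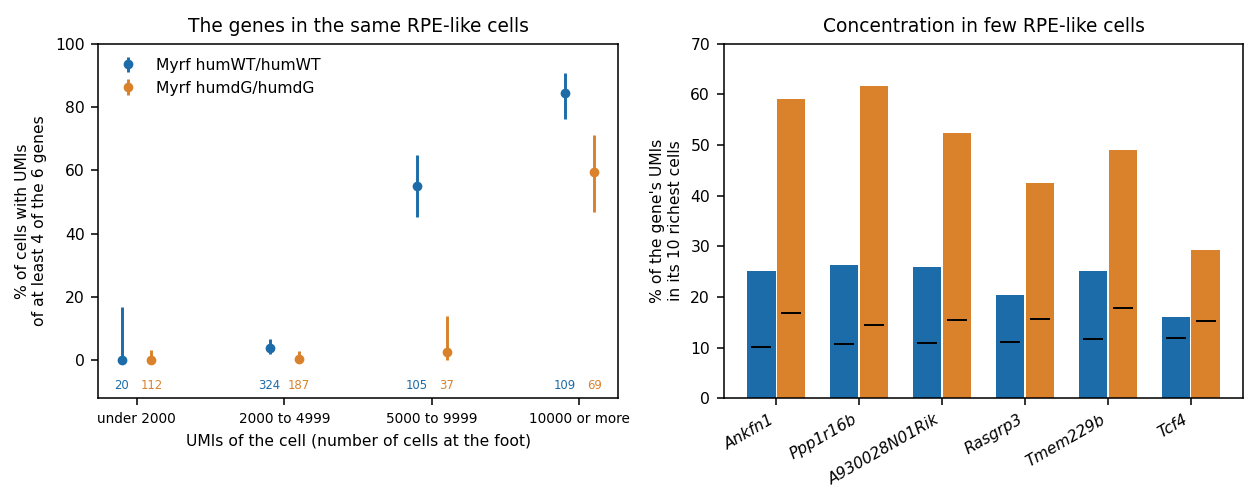
Percent of RPE-like cells with UMIs of at least 4 of the 6 genes, by range of UMIs per cell and with exact binomial 95% intervals, and the share of each gene's UMIs held by its 10 richest cells in humWT and humdG, with black dashes for the share of all UMIs in the same cells. At least 4 genes were found in 55.2% of humWT and 2.70% of humdG cells of 5000 to under 10000 UMIs.

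Markers of other cell types differed between the libraries inside the RPE-like cells. Of all genes in these cells, 15.1% lay at least 1.5 times lower in humdG and 7.19% at least 1.5 times higher. Of the 9 vessel markers 7 had 20 UMIs, of which 6 lay at least 1.5 times lower in humdG and Kdr did not, and their sum was 114 CPM in humWT and 77.1 in humdG. All 10 mesenchyme markers had a ratio below 0 and 8 lay at least 1.5 times lower, with sums of 2632 and 1194 CPM. The 6 muscle markers with 20 UMIs all lay at least 1.5 times lower, with sums of 635 and 204 CPM. Of the 6 cartilage markers with 20 UMIs 5 did, namely Cnmd at -3.86, Acan at -3.42, Col2a1 at -1.98, Sox9 at -0.83 and Col11a1 at -0.60. Col9a1 was at -0.13. The cartilage sums were 530.0 and 287 CPM, of which Sox9 alone gave 231 and 130. The study counts Col1a1, Col1a2, Col2a1 and Col3a1, listed here as mesenchyme or cartilage markers, among lowered matrix genes that the RPE makes. No vessel or mesenchyme marker was at 0 in either library. Retinal progenitor markers went the other way, with 5 of 9 at least 1.5 times higher and sums of 858 and 1310 CPM, and so did 7 of 7 neurogenic markers, with 170 and 349 CPM. RPE markers summed to 19456 and 18879 CPM, and none of the 10 counted lay 1.5 times lower or higher. In the 313 humWT and 273 humdG cells with no UMI of a vessel marker, Ppp1r16b had a ratio of -2.45, Tcf4 -1.30 and Rasgrp3 -0.89. A930028N01Rik had -0.92 there, Ankfn1 -1.33 and Tmem229b -1.27. Shallow cells more often lack a UMI of any marker, and the part of depth in these ratios was not tested. The part of mesenchyme, muscle and cartilage RNA in the Tcf4 difference was not tested.

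Long genes as a group were lower in humdG RPE-like cells. The median log2 ratio was 0.15 over 2893 genes spanning under 10 kb and -0.46 over 514 genes spanning at least 300 kb, the range of Ankfn1 and Tcf4, where 40.5% of genes lay at least 1.5 times lower. The median share of UMIs from genes over 100 kb was 13.9% in humWT and 11.9% in humdG cells. When cells were sorted by that share into 3 ranges, an arrangement made after the data had been seen, all 6 genes lay below 0 in each range. That follows in part from the choice of genes low in these cells. Ankfn1 then had ratios of -0.38, -1.26 and -0.63 from the lowest to the highest share, while A930028N01Rik, the shortest of the genes, had -1.51, -1.79 and -0.98. In vessel-like cells the median of genes of at least 300 kb was -0.22.

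Partners of the genes were examined in lists drawn up by function, with earlier results of these data known. The study names Id1 and Id3 as higher in these samples, so the Id values are a description and no independent evidence. Among E proteins and their inhibitors, Id1, Id2, Id3 and Id4, which bind E proteins such as E2-2 and keep them off DNA, lay at least 1.5 times higher in humdG RPE-like cells, 4 of 6 genes of the list beside 7.19% of all genes. Id1 had 188 UMIs in humWT and 450 in humdG, a log2 ratio of 2.06 (1.81 to 2.32), and Id3 had 727 and 1389 UMIs, a ratio of 1.74 (1.61 to 1.87). Id2 had a ratio of 1.07 and Id4, with 19 and 24 UMIs, 1.14. Of the other E proteins, Tcf3 had a ratio of 0.10 (-0.30 to 0.49) and Tcf12 -0.40 (-0.59 to -0.22). The summed list had 1652 and 1944 CPM in vessel-like cells, where 1 of 6 genes lay at least 1.5 times higher. The retinal progenitor markers, summed at 858 and 1310 CPM in the RPE-like cells, were higher beside the Id genes, and their part in that difference was not tested.

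Of the Wnt factors that share the TCF name, Tcf7l1 and Tcf7l2 lay lower at -0.73 and -0.64. Tcf7 was at 0.33 (-0.82 to 1.44) on 18 and 13 UMIs. In the same list, Lef1 was at 0.68 (-0.22 to 1.58) on 24 and 22 UMIs, and Axin2, a Wnt target, was at 0.03. Of 11 RasGRP relatives and their GTPases 9 had 20 UMIs, none was 1.5 times lower, and Rasgrp2 alone was 1.5 times higher, with 9 and 16 UMIs. Of all genes 15.1% lay at least 1.5 times lower and 7.19% at least 1.5 times higher. Their sum was 456 and 474 CPM. Rap1a, a GTPase that Rasgrp3 can activate, had a ratio of 0.06 (-0.18 to 0.30). Of 7 other protein phosphatase 1 subunits, Ppp1r12b and Ppp1r12c lay at least 1.5 times lower at -0.82 and -0.70, beside 15.1% of all genes. The catalytic subunits Ppp1ca, Ppp1cb and Ppp1cc had ratios of 0.18, -0.06 and -0.06. Ppp1r16a, the nearest relative of Ppp1r16b, had 68 and 36 UMIs and a ratio of -0.11 (-0.74 to 0.49). Tmem229a had 4 and 5 UMIs. The nuclear RNAs Malat1, Neat1 and Meg3 had ratios of -0.10, -0.20 and -0.92. Of 10 genes that the study names as lower, 8 lay at least 1.5 times lower, but that list was chosen on these samples and is no independent evidence.

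Genes whose levels follow those of the 6 were found over 28 points, the 14 classes of both libraries, which share depth and free RNA within a library, so the correlations are a description. Ttr, the thyroid hormone carrier of the RPE, was nearest to Ankfn1 (Pearson r = 0.97 on log2 of the level plus 10) and had a ratio of -0.45 in RPE-like cells. Aanat, an enzyme of melatonin synthesis, was nearest to A930028N01Rik (r = 0.99), and Slco1c1, a transporter of thyroid hormone, to Tmem229b (r = 0.92). Rapgef3 and Rapgef4, the cAMP-responsive activators of Rap also called EPAC proteins, were nearest to Ppp1r16b (r = 0.92) and Rasgrp3 (r = 0.91), with ratios of -0.54 and -0.19 in RPE-like cells. Zfp521 was nearest to Tcf4 (r = 0.86) and had 305 and 78 UMIs there, a ratio of -1.16 (-1.54 to -0.80). Among the genes themselves, r was 0.94 between Ankfn1 and A930028N01Rik and 0.92 between Ppp1r16b and Rasgrp3, while Tcf4 had r between -0.27 and 0.14 with the other 5.

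The ratios in RPE-like cells were recomputed under 18 other choices of cells or scaling. The genes were chosen for low ratios in these cells, so low values there follow in part from that. Ppp1r16b ran from -2.45 to -1.59, Tmem229b from -1.34 to -0.92 and A930028N01Rik from -1.68 to -0.73. Cells with sex-linked UMIs stood in different proportions in the libraries. Cells with a UMI of Xist and none of Y-linked genes numbered 75 and 84, and there A930028N01Rik had a ratio of -1.64. Cells with a Y-linked UMI and none of Xist numbered 161 and 87, and there it was -0.73. Ankfn1 ran from -1.98 in cells thinned to 1000 UMIs to -0.72 when combined over the ranges of long-gene share.

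**Figure D5:**
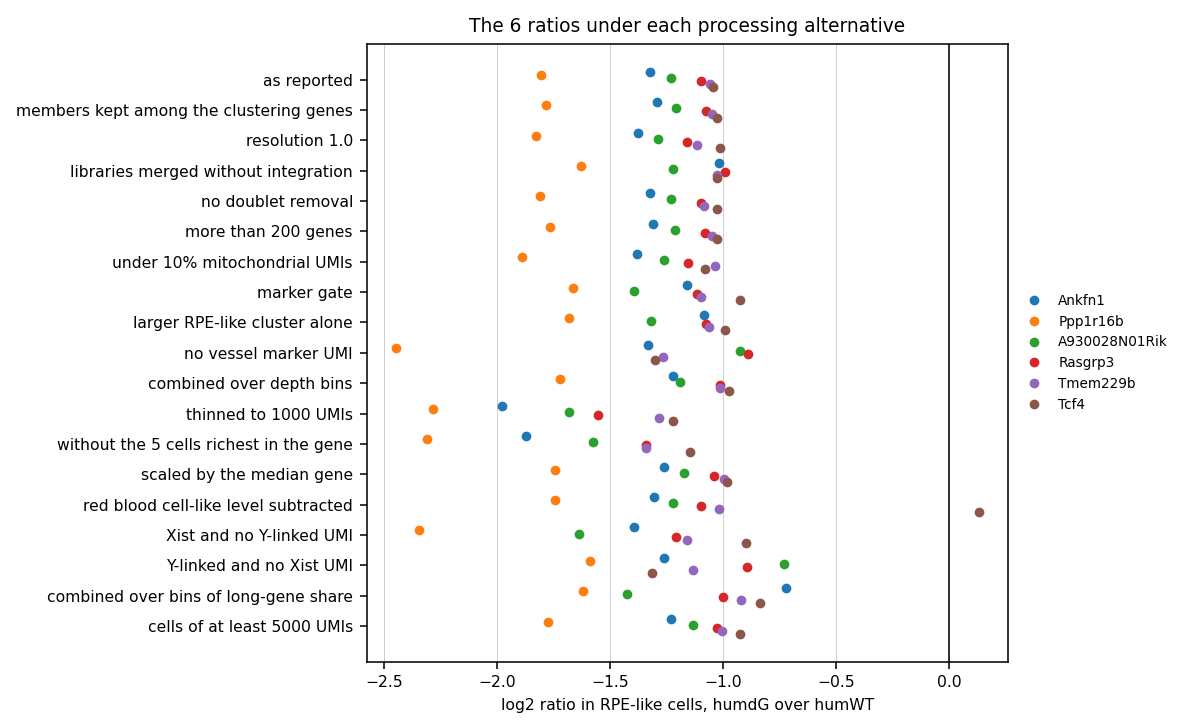
Log2 ratio of each gene in RPE-like cells under the choice reported and under 18 others. Every point lies below 0 except Tcf4 with the red blood cell-like level subtracted, at 0.13. The genes were chosen for lower levels in these cells.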

How the data were processed

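The deposited matrices hold raw UMI counts per gene and barcode, which the authors made from 10x 3′ reads with Cell Ranger 7.1.0 on build mm10, per the submitters' processing notes, which also name Seurat 4.1.1. Whether intron reads were counted is not given in the sources used here. Barcodes with over 500 genes and under 15% mitochondrial UMIs were kept, and they outnumber the cells the study describes. Scrublet (scanpy 1.11.5) called 1 and 0 doublets, so the 5% highest scores, 850 and 956 barcodes, were removed. Seurat 5.3.0 integrated the libraries over 20 dimensions and clustered at resolution 0.5. The 4 members among 2000 variable genes were left out. A cluster was named where at least 3 markers of a class, and no fewer than were not, were raised 2-fold in at least 10% of cells, a rule set after seeing the data. A raised marker also had to be among the 20 leading genes of the cluster. In clusters shallow in both libraries, a marker of the class had to be among the 10 leading genes. The melanocyte-like cluster had more markers of another class among its leading genes and is given by level only. UMIs were summed per class and library (scipy 1.17.1). Interval code was tested on simulated counts. The 6 genes, lists and markers were chosen with earlier results of these data known. The named genes are the 6, their fixed lists and the 3 genes nearest each in level.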

Additional observations from a re-analysis of the deposited data

How the results depend on the processing

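In RPE-like cells the median log2 ratio of the 6 genes lay between -1.62 and -0.96 under the 18 alternatives. Of the 6 genes, 5 or 6 lay at least 1.5 times lower in humdG, beside 15.1% of all genes under the choice reported. The share of all genes under each alternative is not given here. The genes were chosen for lower levels in these cells, so these values follow in part from that choice and are a description. The median was -1.62 with cells thinned to 1000 UMIs and -1.46 without the 5 cells richest in each gene, beside -1.17. The Tcf4 ratio was 0.13, with no interval computed, with the red blood cell-like level subtracted, and the cause was not tested. In vessel-like cells 10 alternatives were run. The shallower cluster alone moved Ppp1r16b to -1.41, Rasgrp3 to -0.83, Tmem229b to -1.12 and Tcf4 to -0.52, and the other 9 left Ppp1r16b between -0.08 and 0.01, Rasgrp3 between -0.26 and -0.20 and Tcf4 between -0.25 and -0.21. By the share of cells with a UMI after thinning, RPE-like cells ranked 10 in humWT and 12 in humdG for Tcf4, and 3 in humdG for Ppp1r16b. Ratios combined over ranges of long-gene share, in cells of at least 5000 UMIs and in each vessel-like cluster were added after seeing the data. No library could be left out and no paired analysis was possible because each genotype is 1 library. Depth limits the genes in classes where they had under 20 UMIs.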

Other observations

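Unnamed clusters also held the genes. The cluster led by Nrxn3, Ntng2 and Dscam, with 290 humWT and 226 humdG cells, met the naming rule for no class and had 1289 and 337 UMIs of Ankfn1, or 268 and 54.3 CPM, a log2 ratio of -2.30 (-2.48 to -2.13). Its Tcf4 level was 1037 and 1013 CPM, a ratio of -0.03 (-0.09 to 0.02). The largest unnamed cluster, led by Gphn, Sncg and Cdk8 and with medians of 2360 and 1658 UMIs, had 338 and 183 UMIs of Ankfn1, a ratio of -1.40, and a Tcf4 ratio of -0.73 (-0.80 to -0.67).

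In RPE-like cells of at least 5000 UMIs, 86.4% of humWT cells with a UMI of Ankfn1 also had one of Tcf4, beside 76.7% of those without, and in humdG the shares were 87.0% and 42.3%. The cells with Ankfn1 were deeper, with medians of 12300 beside 8582 UMIs in humWT and 19550 beside 8513 UMIs in humdG, and the part of depth in these shares was not tested. For A930028N01Rik in humWT the order was reversed, with Tcf4 in 77.4% of cells with it and 93.8% of cells without it.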
